A study of Amaranthus hybridus and Amaranthus hypochondriacus with 18 samples.

Results

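Leaves of *Amaranthus hybridus* plants kept under water deficit were compared directly with leaves of plants given salt, over every transcript of the species. The comparison takes 6 of the 18 libraries of the study, 3 per stress. It was made on raw read counts for all 30155 assembled transcripts, of which 9686 had enough counts to be tested. *A. hybridus* is a wild green-leaved relative of grain amaranth, and all its plants are labelled wild type. Salt plants received 100 ml of NaCl solution daily, at 0.15 M for 7 days, 0.3 M for 4 days and 0.5 M for 3 days. Water-deficit plants had no irrigation for 14 days, and control plants were watered throughout. Plants of all groups were one month old when treatment began, and each library pooled leaves of 3 plants, taken at the positions 5, 6 and 7 below the shoot tip.

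Soil without water and soil with salt both make it harder for a root to take up water, and both raise abscisic acid, the hormone that closes stomata and switches on protective genes. Salt adds sodium and chloride ions, which enter the leaf and must be stored in vacuoles or exported. Amaranths fix carbon by the C4 pathway and accumulate glycine betaine, a solute that protects proteins and membranes. A direct contrast of the stresses asks which leaf transcripts separate dry plants from salt-treated plants, which separate comparisons with watered plants do not test.

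Library totals ran from 14.6 to 18.2 M (mega) counts under salt and from 16.8 to 28.3 M under water deficit. The 20 most abundant transcripts took 95.6% to 97.9% of the counts of these 6 libraries, so that 0.339 to 0.804 M counts per library were left for all other transcripts. Levels are given as CPM, counts scaled to a common library size with TMM factors, and comparisons of levels are made within a transcript only. Library water deficit 3 stood apart from the rest of its group. Across 3006 transcripts its log2 levels correlated at 0.82 and 0.85 with water deficit 1 and 2, at 0.85 to 0.87 with the salt libraries and at 0.88 with controls 1 and 2, while water deficit 1 and 2 correlated with each other at 0.95 and the salt libraries among themselves at 0.95 to 0.96. Control 3 also stood apart, at 0.77 and 0.82 with the other controls. These correlations are across transcripts of the same libraries and describe them only. In control 3 the 20 most abundant transcripts took 85.9% of the counts, against 98.7% and 97.3% in controls 1 and 2. Its TMM factor was 4.95, against 0.349 and 0.825 there, so control levels depend strongly on this scaling. In such bulk leaf samples, fewer cells of a type and less RNA per cell cannot be told apart.

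Water deficit and salt differed in 205 transcripts, 2.12% of those tested, and most of them were lower in dry leaves. Transcripts were called differentially expressed (DEGs) where the quasi-likelihood test of edgeR, fitted on all 9 *A. hybridus* libraries, gave an FDR under 0.01 with a log2FC beyond 1 in either direction. Transcripts lower under water deficit numbered 180 (1.86% of the tested) and those higher numbered 25 (0.258%). The log2FC of the lower DEGs ran from −6.89 to −1.24 with a median of −2.25, and that of the higher DEGs from 1.42 to 6.18 with a median of 2.73. None of the 205 had overlapping libraries between the stresses, whereas among all tested transcripts 12.9% were lower and 9.79% higher in every water-deficit library than in every salt library. Scaling by library totals alone moved the median log2FC of all tested transcripts from 0.05 to −0.24, so directions are relative to the bulk of transcripts. All 205 DEGs kept their sign under it, but 0 were called by the quasi-likelihood test and 222 transcripts had an unadjusted p below 0.05. No other test was run with that scaling. Without water deficit 3 the count rose to 539, with 337 lower (2.79% of the 12079 then tested) and 202 higher (1.67%).

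**Figure D1:**
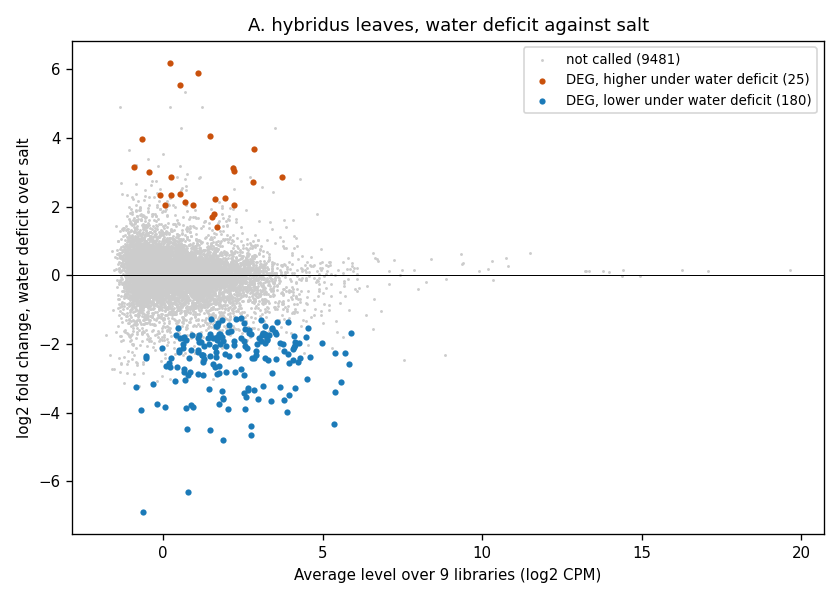
Log2 fold change of water deficit over salt (vertical axis) against the average level over 9 libraries in log2 CPM (horizontal axis) for the 9686 tested transcripts, one point each. The 180 lower DEGs extend over a wide range of levels, while the 25 higher DEGs lie among transcripts of low to moderate level.

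Descriptions were in hand for 43 of the 205 DEGs, 22 lower and 21 higher, and were informative for 18 and 15 of these. They come from the lists that the study made by comparing each stress with control on the same libraries, of which the portion used here holds few transcripts that were lower under water deficit. The described DEGs are therefore no cross-section of the 205, and their direction is not independent of those lists.

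Most tested members of the list of nuclear photosynthesis and pigment transcripts were lower under water deficit than under salt. The members come from the study's DEG lists of the same libraries, so they do not stand for all such transcripts. Of these 7 transcripts, 4 were lower DEGs (1.86% of all tested), 1 was a higher DEG (0.258%) and 2 did not pass, and their median log2FC was −3.35 against 0.05 over all tested transcripts. A chlorophyll a-b binding protein, which harvests light for the photosystems (Ahybridus_DN9789_c1_g1_i1), measured 9.20, 12.2 and 8.55 CPM in salt libraries 1 to 3 and 0.775, 0.484 and 1.19 in water-deficit libraries 1 to 3 (log2FC −3.65 ± 0.44, FDR 3.57e-04; ± is the standard error of the fit). Its controls measured 13.7, 14.5 and 31.8, so that every dry library lay below every salt library and every salt library below every control, although salt against control did not pass (FDR 0.572). A photosystem I reaction centre subunit (Ahybridus_DN6148_c0_g1_i1) measured 7.00, 8.93 and 6.57 CPM under salt and 0.620, 0.528 and 1.12 under water deficit (log2FC −3.35 ± 0.45, FDR 8.61e-04). Beta carbonic anhydrase, which supplies bicarbonate for carbon fixation (Ahybridus_DN10685_c0_g1_i1), measured 2.70, 3.96 and 2.42 CPM under salt and 0.207, 0.0440 and 0.447 under water deficit (log2FC −3.85 ± 0.50, FDR 6.49e-04). These 3 transcripts had their highest dry level in water deficit 3, and it was still below the lowest salt library. A carotenoid cleavage dioxygenase, an enzyme that cuts carotenoids into smaller apocarotenoids (Ahybridus_DN9656_c0_g1_i1), measured 38.2, 50.2 and 57.9 CPM under salt and 3.30, 2.29 and 8.49 under water deficit (log2FC −3.39 ± 0.47, FDR 0.00105). Its controls, at 63.5 to 76.0 CPM, were above every salt library, again without passing (FDR 0.779). Rubisco accumulation factor, an assembly chaperone of the carbon-fixing enzyme (Ahybridus_DN4508_c0_g1_i1), went the other way, with 1.80, 1.26 and 1.43 CPM under salt and 6.15, 5.14 and 4.10 under water deficit (log2FC 1.80 ± 0.28, FDR 0.00212). The small subunit of rubisco itself (Ahybridus_DN9730_c1_g1_i1) did not pass, at 1.30, 1.70 and 0.770 CPM under salt and 0.0516, 0.132 and 1.04 under water deficit (FDR 0.216), with water deficit 3 inside the salt range.

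Nitrate reductase and a nitrate transporter family member were also lower in dry leaves than in salt leaves. Nitrate reductase, the first enzyme of nitrate assimilation (Ahybridus_DN9040_c0_g1_i1), measured 22.8, 29.4 and 21.8 CPM under salt and 1.60, 1.23 and 6.56 under water deficit (log2FC −3.01 ± 0.53, FDR 0.00486), with controls at 36.8 to 48.8. The salt libraries lay below the controls and the dry libraries below both, with water deficit 3 the highest of the dry ones. Salt against control did not pass for nitrate reductase (FDR 0.760). A transporter of the NRT1/PTR family, which carries nitrate, peptides or hormones (Ahybridus_DN8424_c0_g1_i1), measured 13.6, 8.05 and 6.38 CPM under salt and 0.723, 0.484 and 1.27 under water deficit (log2FC −3.54 ± 0.42, FDR 3.24e-04). Of 10 tested transcripts for nitrogen, sulfur and mineral transport, these 2 were the DEGs, where 2.12% of all tested were, and their list had a median log2FC of −0.21. The list includes a transcript described as metal transporter nramp5 (Ahybridus_DN26490_c0_g1_i1) that alone held 6.19% of all counts and did not pass (FDR 0.979), and whether its description fits was not tested. A second NRT1/PTR transcript (Ahybridus_DN19845_c0_g1_i1) had the opposite sign without passing the FDR limit, at 0.700, 0.377 and 0.477 CPM under salt and 1.91, 1.85 and 2.38 under water deficit (log2FC 2.02 ± 0.41, FDR 0.0112). A sulfate transporter (Ahybridus_DN4519_c0_g1_i1) and a boron transporter (Ahybridus_DN13358_c0_g1_i1) lay lower in every dry library than in any salt library, with FDRs of 0.0141 and 0.0380. The other sulfate transporter of the list (Ahybridus_DN6198_c0_g1_i1) had the opposite sign, at 3.20, 2.14 and 2.86 CPM under salt and 8.73, 14.0 and 2.31 under water deficit (log2FC 1.63 ± 0.50, FDR 0.0903), and without water deficit 3 it was a higher DEG with a log2FC of 2.08 (FDR 0.00104). These 4 were chosen after their values were seen.

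Among lower DEGs with an informative description, the lowest log2FC belonged to a tropinone reductase homolog, geraniol 8-hydroxylase-like, a pair of hydrolases and a pair of cellulose synthase-like transcripts. Geraniol 8-hydroxylase-like, a cytochrome P450 whose relatives act in monoterpene synthesis in *Catharanthus* (Ahybridus_DN6486_c0_g1_i1), measured 5.50, 5.09 and 5.03 CPM under salt and 0.207, 0.132 and 0.223 under water deficit (log2FC −4.80 ± 0.31, FDR 4.32e-06). Its controls measured 5.30, 5.24 and 5.81, which the salt libraries matched to within 1 CPM. Cellulose synthase-like g2 (Ahybridus_DN9567_c0_g1_i1), of the superfamily that builds wall polysaccharides, measured 8.30, 6.54 and 13.1 CPM under salt and 0.207, 0.440 and 0.745 under water deficit (log2FC −4.38 ± 0.45, FDR 1.40e-04). Cellulose synthase-like g3 (Ahybridus_DN7587_c0_g1_i1) measured 1.60, 3.08 and 2.86 CPM under salt and 0.103, 0.0440 and 0.223 under water deficit (log2FC −4.48 ± 0.52, FDR 2.76e-04). The third transcript of this group, g1 (Ahybridus_DN734_c0_g1_i1), was also lower in each dry library, at 0.0516 to 0.521 CPM against 0.629 to 1.10 under salt, but did not pass (FDR 0.0851). A tropinone reductase homolog, of the short-chain dehydrogenases (Ahybridus_DN2491_c0_g1_i1), had 100 counts over the salt libraries and 1 over the dry ones. This is a ratio of 104 with a 95% counting interval of 18.3 to 4166, which covers counting error only. A pair of transcripts of 1 assembly cluster is described as haloacid dehalogenase-like hydrolase 3. Of these, Ahybridus_DN9689_c0_g1_i1 measured 48.2, 51.7 and 71.7 CPM under salt and 4.29, 2.55 and 1.64 under water deficit (log2FC −4.33 ± 0.44, FDR 1.40e-04), and Ahybridus_DN9689_c0_g2_i1 had a log2FC of −4.65 ± 0.30.

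Regulators and hormone metabolism gave single transcripts. Constans-like 1, a B-box protein related to the day-length regulator CONSTANS of *Arabidopsis* (Ahybridus_DN7210_c0_g1_i1), measured 8.00, 10.2 and 6.42 CPM under salt and 0.568, 0.264 and 0.894 under water deficit (log2FC −3.89 ± 0.40, FDR 1.40e-04). Xanthoxin dehydrogenase-like, related to the enzyme that makes abscisic aldehyde on the way to abscisic acid (Ahybridus_DN9132_c0_g1_i1), measured 1.70, 2.01 and 2.05 CPM under salt and 0.258, 0.220 and 0.298 under water deficit (log2FC −2.91 ± 0.31, FDR 1.89e-04). With controls at 4.04 to 5.21 CPM, its watered, salt and dry libraries lay in this order without overlap, although salt against control did not pass (FDR 0.109). An endochitinase a-like transcript, of the enzymes that cut chitin (Ahybridus_DN336_c0_g2_i1), showed the same order, at 9.33 to 12.0 CPM in controls, 2.60 to 4.15 under salt and 0.352 to 1.19 under water deficit (log2FC −2.32 ± 0.39, FDR 0.00375). Plant cadmium resistance 2-like (Ahybridus_DN28039_c0_g1_i1), whose *Arabidopsis* relative moves zinc out of cells, did so at lower levels, 2.10 to 4.67, 0.624 to 1.40 and 0.0879 to 0.149 CPM in that order (log2FC −3.04 ± 0.56, FDR 0.00575). For the endochitinase and cadmium resistance transcripts, salt against control did not pass either (FDR 0.109 and 0.109). The endochitinase, cadmium resistance and tropinone reductase transcripts fall outside the naming rule and were chosen after their values were seen.

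**Figure D2:**
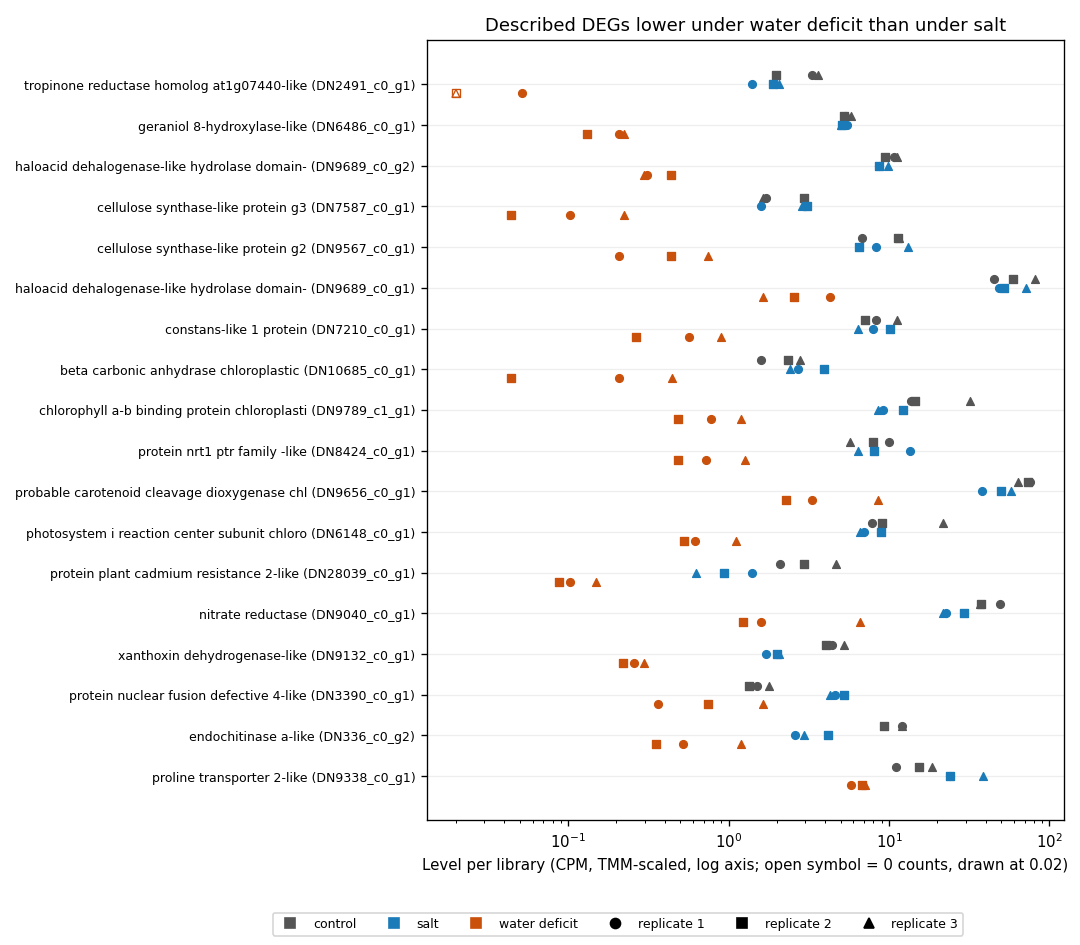
Level of the 18 described lower DEGs in each library, in CPM on a log axis, with controls grey, salt blue and water deficit orange, and a marker shape per replicate number. In each row the 3 orange points lie to the left of the 3 blue ones.

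For a pair of described lower DEGs the salt libraries lay above all controls, but no difference from control met the DEG limits. Proline transporter 2-like, which carries the protective amino acid proline (Ahybridus_DN9338_c0_g1_i1), measured 11.0, 15.3 and 18.6 CPM in controls, 24.0, 24.1 and 38.7 under salt and 5.78, 6.77 and 7.08 under water deficit (log2FC −2.15 ± 0.32, FDR 0.00186). The lowest salt library was above the highest control and the highest dry library was below the lowest control, with FDRs against control of 0.512 for salt and 0.0271 for water deficit. A second transcript with the same description (Ahybridus_DN8053_c0_g2_i1) did not pass, at 5.80, 4.71 and 6.93 CPM under salt and 7.64, 5.58 and 1.12 under water deficit (FDR 0.857), and there water deficit 3 was the low library. Nuclear fusion defective 4-like (Ahybridus_DN3390_c0_g1_i1) measured 1.50, 1.35 and 1.79 CPM in controls, 4.60, 5.22 and 4.29 under salt and 0.361, 0.748 and 1.64 under water deficit (log2FC −2.42 ± 0.39, FDR 0.00281). Its water deficit 3 lay inside the control range, and its FDRs against control were 0.215 for salt and 0.213 for water deficit.

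Among lower DEGs without an informative description, Ahybridus_DN9581_c0_g2_i1 had 0 counts in all 3 dry libraries and 30 counts over the salt libraries, which is at least 10.4-fold lower when 3 counts over the dry group are taken as the limit. Ahybridus_DN8701_c0_g1_i1 measured 3.90, 4.46 and 4.11 CPM under salt and 0.103, 0.220 and 0.223 under water deficit (log2FC −4.49 ± 0.39, FDR 4.91e-05). Ahybridus_DN9086_c0_g3_i1 measured 23.6, 22.8 and 19.9 CPM under salt and 1.34, 2.11 and 0.596 under water deficit (log2FC −3.99 ± 0.40, FDR 1.40e-04). The 205 DEGs came from 192 assembly clusters, and 10 clusters held 23 of them, each cluster with its DEGs in a single direction. Pieces of a cluster can be parts or near copies of a gene, and only reads that map to a single place were counted, so the levels of such pieces are uncertain.

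Higher DEGs with a description included 2 clock transcripts. Of 7 tested transcripts for the circadian clock and light signalling, 2 were higher DEGs, 1 (constans-like 1) was a lower DEG, and the median log2FC was 2.05, while 0.258% of all tested transcripts were higher and 1.86% lower DEGs. Transcription factor pcl1-like, a relative of LUX ARRHYTHMO of the *Arabidopsis* evening complex (Ahybridus_DN24_c0_g2_i1), measured 0.100, 0.126 and 0 CPM under salt and 1.14, 1.14 and 0.596 under water deficit, with controls at 1.10, 0.518 and 0.350. It rested on 3 counts over the salt libraries and 56 over the dry ones, a ratio of 17.9 with a 95% counting interval of 5.81 to 89.3 (log2FC 3.96 ± 0.78, FDR 0.00962). Bolting time control 1, a pseudo-response regulator of flowering known from beet (Ahybridus_DN24256_c0_g1_i1), measured 0.200, 0.314 and 0.770 CPM under salt and 2.12, 1.89 and 2.09 under water deficit (log2FC 2.05 ± 0.40, FDR 0.00972). A timing of cab transcript (Ahybridus_DN7319_c0_g1_i1), the family of the evening clock gene TOC1, just missed the FDR limit, at 0.200, 0.377 and 0.697 CPM under salt and 1.96, 2.59 and 2.23 under water deficit (FDR 0.0111). Response regulators of the clock described as prr37 (Ahybridus_DN19862_c0_g1_i1) and aprr1 (Ahybridus_DN10336_c0_g1_i1) were also higher in each dry library than in any salt library, with FDRs of 0.0170 and 0.0170. A further regulator, aprr5 (Ahybridus_DN9426_c0_g2_i1), was at 3.71 to 5.03 CPM under salt and 2.98 to 4.70 under water deficit against 16.9 to 17.8 in controls, with a difference between the stresses of −0.05 ± 0.27 on the log2 scale. The last 4 were chosen after their values were seen. The hour at which leaves were taken is not given in the sources used here.

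A chloroplast ribonucleoprotein and a dnaJ protein were higher under water deficit than under salt, with the controls in between. A 29 kDa chloroplast ribonucleoprotein-like transcript, of the proteins that stabilise chloroplast messenger RNA (Ahybridus_DN2534_c0_g1_i1), measured 3.20, 3.94 and 3.45 CPM in controls, 0.800, 0.880 and 1.28 under salt and 7.02, 5.94 and 13.8 under water deficit (log2FC 3.11 ± 0.36, FDR 3.02e-04). Salt libraries lay below all controls and dry libraries above all of them, with the highest level in water deficit 3, and the FDRs against control were 0.116 for salt and 0.0203 for water deficit. A dnaJ domain protein, a co-chaperone of heat shock protein 70 (Ahybridus_DN7857_c0_g1_i1), had the same order, at 3.60, 4.25 and 3.61 CPM in controls, 2.30, 1.63 and 2.64 under salt and 14.7, 9.50 and 19.9 under water deficit (log2FC 2.73 ± 0.32, FDR 3.24e-04). Against control, its FDR was 0.617 for salt and 0.00170 for water deficit. It was the single DEG among 11 tested heat shock and chaperone transcripts, whose median log2FC was 1.25. A glycine-rich RNA-binding protein (Ahybridus_DN8991_c0_g1_i1) measured 0.600, 1.13 and 0.881 CPM under salt and 9.91, 5.50 and 6.48 under water deficit (log2FC 3.03 ± 0.50, FDR 0.00321), and a ty1-copia retrotransposon (Ahybridus_DN8942_c0_g1_i1) measured 2.40, 2.51 and 3.63 and 28.1, 18.6 and 16.8 (log2FC 2.88 ± 0.44, FDR 0.00210). For both, the salt libraries were below all controls, while controls of 2.20 to 9.58 and 7.61 to 25.4 CPM overlapped the dry libraries through control 3. Neither stress passed against control in either transcript, with FDRs of 0.109 and 0.109 for salt and 0.587 and 0.478 for water deficit.

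Other described higher DEGs included transcripts of transport, amino acid breakdown and the cell wall. Both transcripts described as sugar transport protein 13, a hexose importer of the plasma membrane, passed. Ahybridus_DN8623_c0_g1_i1 measured 1.00, 0.943 and 0.734 CPM under salt and 4.23, 4.49 and 2.01 under water deficit (log2FC 2.05 ± 0.36, FDR 0.00448), and Ahybridus_DN8623_c0_g2_i1 measured 0.700, 0.629 and 0.404 and 3.25, 3.69 and 1.56 (log2FC 2.38 ± 0.45, FDR 0.00747). They share an assembly cluster and may be pieces of a single gene. A sodium/calcium exchanger family transcript (Ahybridus_DN9410_c0_g1_i1) measured 1.90, 1.89 and 1.14 CPM under salt, 1.90, 1.56 and 2.41 in controls and 10.7, 8.71 and 3.50 under water deficit (log2FC 2.26 ± 0.40, FDR 0.00448), so that the salt range overlapped the watered range. Trichome birefringence-like 38, of the family that acetylates wall polysaccharides (Ahybridus_DN8668_c0_g1_i1), measured 1.80, 0.817 and 1.25 CPM under salt and 4.39, 7.39 and 5.89 under water deficit (log2FC 2.23 ± 0.34, FDR 0.00210). Methionine gamma-lyase-like, which breaks down methionine (Ahybridus_DN8161_c0_g1_i1), measured 0.800, 0.503 and 0.183 CPM under salt and 9.30, 11.5 and 0.819 under water deficit (log2FC 4.07 ± 0.78, FDR 0.00849). In it, water deficit 3 lay just above the highest salt library and far below the other dry libraries. Its call was lost without control 2, any salt library, or water deficit 1 or 2.

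**Figure D3:**
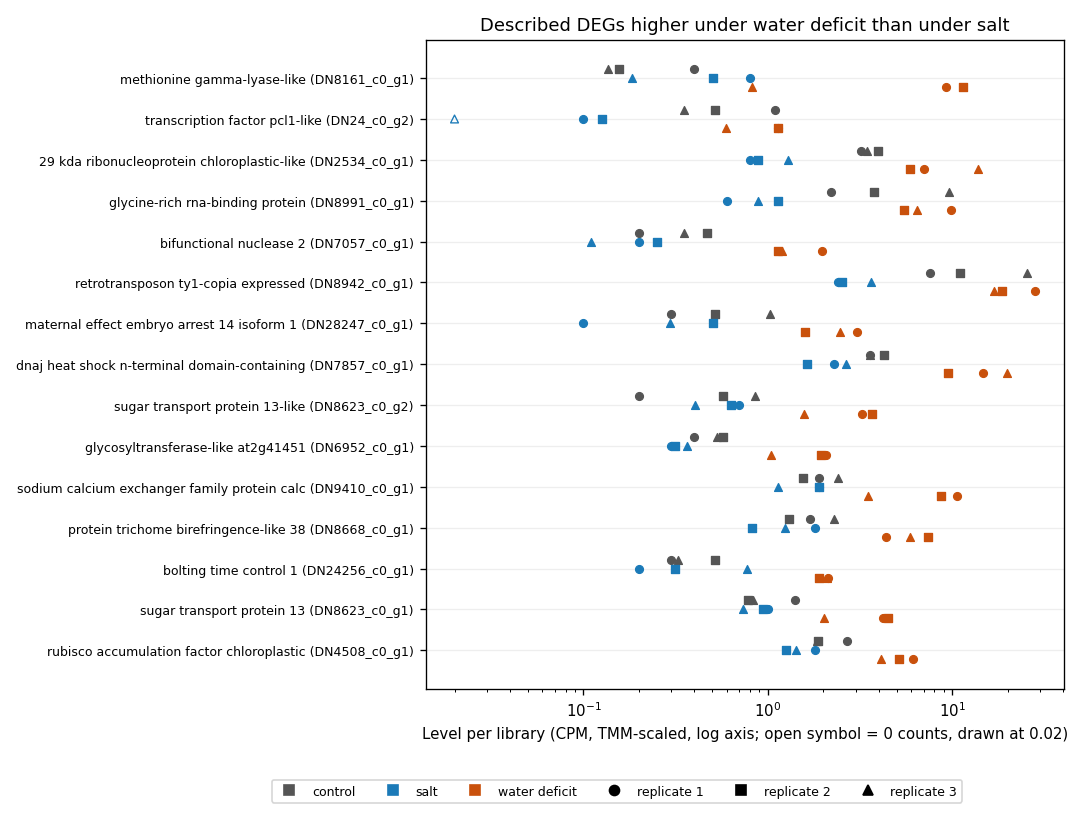
Level of the 15 described higher DEGs in each library, in CPM on a log axis, with the colours and shapes of the plot of lower DEGs. The orange points lie to the right of the blue ones in each row, and the water deficit 3 triangle is the leftmost orange point for methionine gamma-lyase, both sugar transporters and the exchanger, among others.

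Bifunctional nuclease 2 (Ahybridus_DN7057_c0_g1_i1), maternal effect embryo arrest 14 (Ahybridus_DN28247_c0_g1_i1) and a glycosyltransferase-like transcript (Ahybridus_DN6952_c0_g1_i1) were higher DEGs at low levels. They measured 0.110 to 0.251, 0.100 to 0.503 and 0.300 to 0.367 CPM under salt and 1.14 to 1.96, 1.58 to 3.05 and 1.04 to 2.07 under water deficit, in that order, and fall outside the naming rule. The largest rises had no informative description. Ahybridus_DN8313_c0_g1_i1 had 2 counts over the salt libraries and 175 over the dry ones, a ratio of 83.8 with a 95% counting interval of 22.8 to 697. Ahybridus_DN8466_c0_g1_i1 measured 0.100, 0.0629 and 0.110 CPM under salt and 7.95, 6.42 and 2.98 under water deficit (log2FC 5.89 ± 0.50, FDR 4.91e-05), and Ahybridus_DN834_c0_g1_i1 measured 0, 0.189 and 0.0367 and 7.28, 3.61 and 0.298 (log2FC 5.55 ± 1.01, FDR 0.00573). The dry libraries of all 3 were above every salt and control library. For Ahybridus_DN834_c0_g1_i1 this rests on 4 counts in water deficit 3, against 4 counts (0.207 CPM) in control 2. Its call was lost in 6 of 9 fits with a library left out. An uncharacterized protein (Ahybridus_DN9552_c0_g1_i1), chosen after its values were seen, had tight groups on both sides of control, with 1.10, 0.754 and 1.50 CPM under salt, 4.80, 5.08 and 5.68 in controls and 15.5, 14.3 and 14.5 under water deficit (log2FC 3.69 ± 0.30, FDR 4.18e-05).

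The control libraries, which do not enter the contrast itself, place these differences. The mean control level was nearer to salt than to water deficit, on a log2 scale, for 178 of the 180 lower DEGs (98.9%) and for 17 of the 25 higher DEGs, against 63.9% of all tested transcripts. Among the lower DEGs it was above both stresses in 110 and between them in 70. Without control 3, 177 lower and 18 higher DEGs had the control nearer to salt. Salt libraries overlapped the control libraries for 136 of the 180 lower and 12 of the 25 higher DEGs. The share over all tested transcripts was not counted, so this overlap does not set the DEGs apart. The stresses lay on opposite sides of all controls for 26 DEGs, with salt below and water deficit above in 10 and the reverse in 16, while over all tested transcripts these patterns held for 0.196% and 0.33%. A difference between the stresses was needed to be a DEG, so this share is a description. Without water deficit 3 the patterns held for 11 and 17 DEGs, and without control 3 for 14 and 31. Set against control in the same fit, water deficit gave 410 DEGs (4.23% of the tested) and salt 1 (0.0103%), and these comparisons share the control libraries with each other and a stress group each with the present one.

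In the LEA and raffinose lists of protective transcripts, every tested member had a log2FC above 0 and none was a DEG. Over all tested transcripts 2.12% were DEGs, and the lists are too small for 0 DEGs to set them apart. Their members come from the study's DEG lists of the same libraries, so their direction is not independent of those lists. Levels of these transcripts in water deficit 3 differed from those in the other dry libraries. The 11 tested LEA and dehydration transcripts, which code for proteins that shield cells during drying, had 0 DEGs and a median log2FC of 1.41. A late embryogenesis abundant transcript (Ahybridus_DN5179_c0_g1_i1) measured 1.00, 0.566 and 0.734 CPM under salt and 6.56, 8.97 and 0.447 under water deficit (FDR 0.0448), and a LEA14 homolog (Ahybridus_DN6830_c0_g2_i1) measured 0.600, 0.503 and 0.917 and 7.90, 6.51 and 0.298 (FDR 0.0477). In both, water deficit 1 and 2 were far above all salt libraries and water deficit 3 was below them. Of 3 tested transcripts for raffinose family oligosaccharides, sugars that stabilise membranes, none was a DEG, with a median log2FC of 3.39. A galactinol-sucrose galactosyltransferase, the raffinose-making enzyme (Ahybridus_DN9347_c1_g1_i1), measured 2.60, 0.629 and 1.65 CPM under salt and 38.8, 52.9 and 1.12 under water deficit (log2FC 4.29 ± 0.94, FDR 0.0182). UDP-glucose 4-epimerase, which makes UDP-galactose (Ahybridus_DN9128_c0_g2_i1), measured 0.300, 0 and 0.183 and 2.89, 1.63 and 0.223 (log2FC 3.39 ± 0.82, FDR 0.0309).

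Over all tested transcripts 0.258% were higher and 1.86% lower DEGs, which is the background for the counts of each list. The abscisic acid list had 14 tested transcripts, 1 lower DEG (xanthoxin dehydrogenase) and a median log2FC of 1.59. Amino acid metabolism had 1 higher DEG of 14 and a median of 1.45, sugar and starch metabolism 2 higher of 12 and 0.77, and the cell wall 1 higher and 2 lower of 15 and 0.99. The glycine betaine and proline list had 1 lower DEG of 7, the proline transporter, and a median of 0.54. Lipid transfer proteins, glutathione and ascorbate, and transcription factors had 0 DEGs of 4, 8 and 9, with medians of 1.98, 1.37 and 0.70. In the glutathione and ascorbate list, monodehydroascorbate reductase, which recycles ascorbate (Ahybridus_DN8920_c0_g1_i1), was higher in each dry library, at 11.7, 10.6 and 11.5 CPM against 5.20, 6.73 and 4.51 under salt (log2FC 1.04 ± 0.27, FDR 0.0476). Gamma-glutamylcyclotransferase (Ahybridus_DN2260_c0_g1_i1) measured 0.100, 0.126 and 0.183 and 1.39, 1.19 and 0.149 CPM (FDR 0.0586). Lipid transfer proteins Ahybridus_DN9330_c0_g3_i1 and Ahybridus_DN4609_c0_g1_i1 had FDRs of 0.234 and 0.308. Transcription factor bhlh130-like (Ahybridus_DN8350_c0_g1_i1) measured 2.40, 1.89 and 3.41 and 6.71, 7.61 and 3.50 CPM (FDR 0.0659), and heat stress transcription factor c-1 (Ahybridus_DN28452_c0_g1_i1) 0.700, 0.377 and 0.440 and 1.34, 1.23 and 1.42 (FDR 0.0698). Where a list had no DEG, the quasi-likelihood test still gave an unadjusted p below 0.05 for 7 LEA, 3 raffinose, 5 glutathione and ascorbate, 2 lipid transfer and 3 transcription factor transcripts, 16.0% of all tested transcripts having one.

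**Figure D4:**
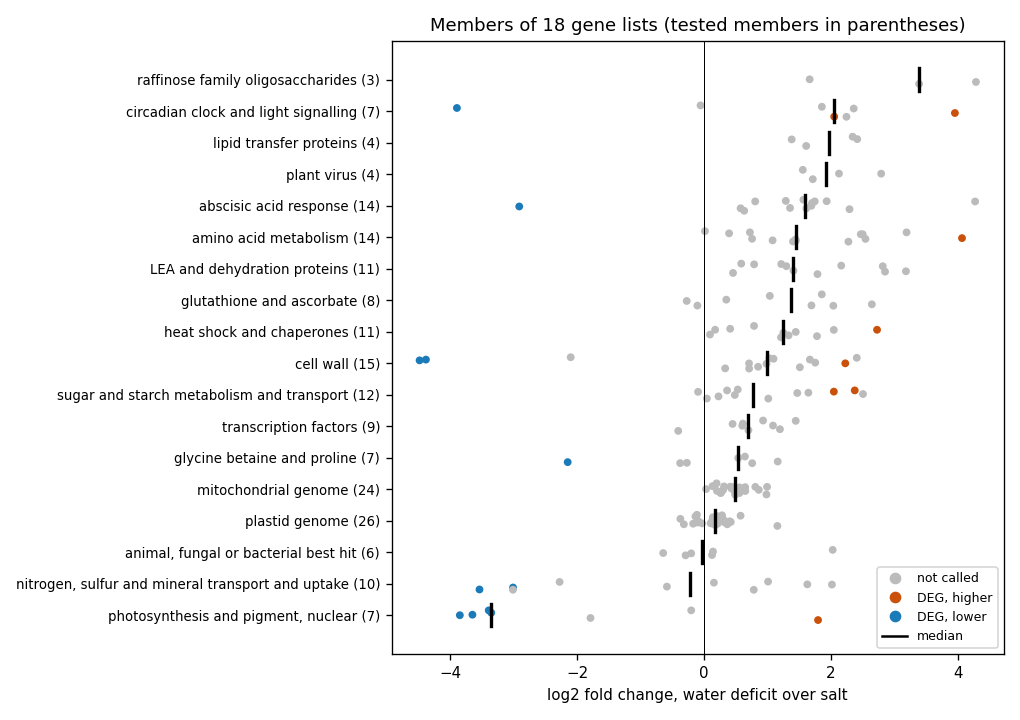
Log2 fold change of water deficit over salt for each tested member of 18 gene lists, one point per transcript, with DEGs coloured and a black bar at the list median. Photosynthesis is the lowest list at −3.35 and raffinose sugars the highest at 3.39, and coloured points on the right are few.

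A pair of glutathione S-transferases was above every control in each stressed library, and the 4 transcripts given here were chosen after their values were seen. Glutathione S-transferase u19-like, a detoxifying enzyme (Ahybridus_DN26590_c0_g1_i1), measured 0.300, 0.259 and 0.147 CPM in controls, 2.50, 1.76 and 3.60 under salt and 2.22, 2.42 and 1.94 under water deficit, a difference between stresses of −0.27 ± 0.31 on the log2 scale. A chloroplast glutathione S-transferase (Ahybridus_DN27891_c0_g1_i1) measured 0.500, 0 and 0.0678, 2.10, 1.32 and 2.09 and 1.60, 1.36 and 2.23 CPM in the same order, with a difference of −0.10 ± 0.48. The FDR against control was 0.00324 for salt and 2.00e-04 for water deficit in the first and 0.0799 and 0.00231 in the second. Phosphoethanolamine N-methyltransferase, which makes the choline used for glycine betaine (Ahybridus_DN9721_c0_g2_i1), measured 23.6, 30.3 and 47.0 CPM in controls, 120, 93.0 and 87.6 under salt and 106, 124 and 1.42 under water deficit. S-adenosylmethionine synthase 2, which makes the methyl donor of that reaction (Ahybridus_DN9541_c1_g1_i1), measured 87.7, 92.9 and 95.5, 275, 201 and 149 and 318, 298 and 16.0. In these 2, water deficit 1 and 2 reached or passed the salt level and water deficit 3 was below every control library.

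Library water deficit 3 was examined against calls made without it. Among the 337 lower DEGs of the fit without it, it lay below all salt libraries for 298 (88.4%), against 39.3% of all tested transcripts with a negative log2FC. Among the 202 higher DEGs it lay above all salt libraries for 74 (36.6%), against 36.9% of tested transcripts with a positive log2FC, and below all of them for 57 (28.2%), against 19.7%. The same salt libraries enter the calls and these counts. Most lower DEGs of that fit were low in water deficit 3 as well. Its higher DEGs were above salt in water deficit 3 no more often than tested transcripts of that sign. The filter of that fit needed 2 libraries, so transcripts with counts only in water deficit 1 and 2 could enter it. Such transcripts can only be higher DEGs, so the shares of the 2 directions cannot be compared directly. In the lists, water deficit 3 was the lowest dry library for 11 of 11 LEA, 3 of 3 raffinose, 13 of 14 abscisic acid, 14 of 14 amino acid and 12 of 12 sugar and starch transcripts, against 38.1% of all tested. It was the lowest for 1 of 7 photosynthesis transcripts and for 0 of 50 organelle transcripts. It lay below all controls for 7 of 11 LEA, 6 of 7 glycine betaine and proline, 5 of 7 photosynthesis, 5 of 14 abscisic acid, 4 of 12 sugar and starch, 3 of 14 amino acid and 0 of 3 raffinose transcripts, against 29.1% of all tested. Members of these lists were picked from the study's DEG lists of the same libraries, water deficit 3 among them. All tested transcripts are therefore no matched background, and these counts describe the lists only.

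Without water deficit 3, 10 of 14 tested LEA transcripts, 5 of 5 raffinose transcripts, 9 of 15 amino acid transcripts and 5 of 14 sugar and starch transcripts were higher DEGs, where 1.67% of all tested were. List members come from the study's DEG lists of the same libraries, so these counts are a description only. The filter of this fit needed 2 libraries, so transcripts high in water deficit 1 and 2 only could enter it. With all libraries, 11 LEA and 3 raffinose transcripts were tested. Galactinol synthase (Ahybridus_DN5724_c0_g1_i1) was among the members tested only here. The abscisic acid list then had 9 higher DEGs and 1 lower of 14, the cell wall list 5 and 3 of 18, and photosynthesis 3 and 5 of 10, where 2.79% of all tested were lower DEGs. The 3 higher DEGs of the photosynthesis list were rubisco accumulation factor and 2 transcripts described as chlorophyllases (Ahybridus_DN10154_c0_g1_i1 and Ahybridus_DN15314_c0_g1_i1). The chlorophyllases were tested only in this fit. Leaving out any other stressed library lowered the count of DEGs, to 72 and 63 without water deficit 1 and 2 and to 86, 68 and 90 without salt 1, 2 and 3. In all 9 fits with a library left out, 54 of the 205 DEGs were called, 49 of them lower and 5 higher. The 5 were the dnaJ protein, the 29 kDa ribonucleoprotein, and Ahybridus_DN9552_c0_g1_i1, Ahybridus_DN8466_c0_g1_i1 and Ahybridus_DN8313_c0_g1_i1. The lower ones included the chlorophyll a-b binding protein, the photosystem I subunit, carbonic anhydrase, carotenoid cleavage dioxygenase, both cellulose synthase-like transcripts, constans-like 1, geraniol 8-hydroxylase, the NRT1/PTR transporter and xanthoxin dehydrogenase. Of the 33 DEGs with an informative description, 15 were called in all 9 fits. The other 18, which include nitrate reductase, both sugar transporters, both clock transcripts, the glycine-rich protein and the proline transporter, lost the call in 2 to 6 fits, none of them without water deficit 3 or control 3.

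**Figure D5:**
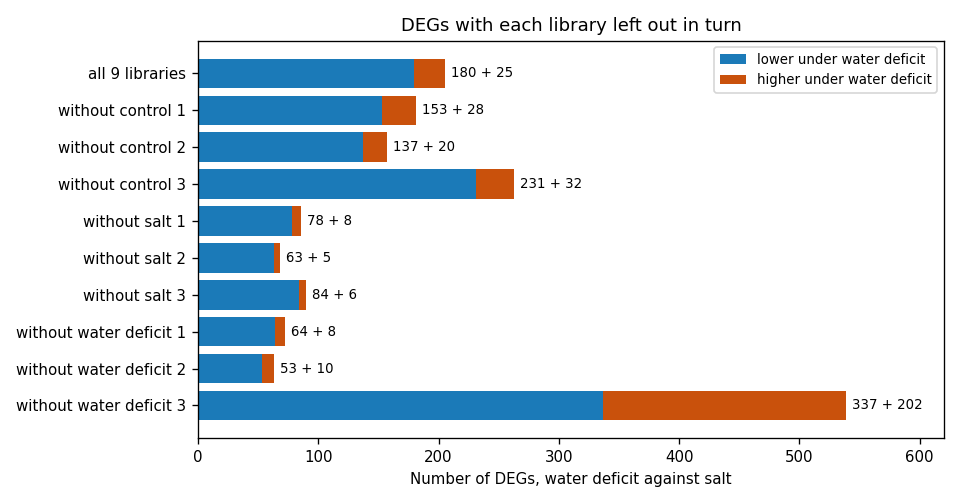
Number of DEGs of water deficit against salt with all 9 libraries and with each library left out in turn, split into lower (blue) and higher (orange), with both numbers at the end of each bar. The count is 539 without water deficit 3, with 202 higher, and 63 to 90 without any other stressed library.

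Organelle transcripts and transcripts of other organisms were set beside these results. The 4 leaf markers (chlorophyll a-b binding protein, photosystem I subunit, rubisco small subunit and carbonic anhydrase) had counts in all 9 libraries. Plastid and mitochondrial genome transcripts had 0 DEGs of 26 and of 24 in the quasi-likelihood test, where 2.12% of all tested were DEGs. At an unadjusted p below 0.05 there were 0 and 0, against 16.0% of all tested, and the medians were 0.17 and 0.48. Summed plastid levels ran from 4863 to 86980 CPM in controls and from 19113 to 38790 under salt. With such a spread, the lack of calls in these 2 lists does not show equal levels. Their lowest p was found for RNA polymerase beta (Ahybridus_DN9894_c0_g2_i1, FDR 0.437) and ribosomal protein s12 (Ahybridus_DN9589_c0_g1_i1, FDR 0.781) in the plastid list, and for NADH dehydrogenase (Ahybridus_DN7809_c0_g1_i1, FDR 0.559) and Ahybridus_DN9905_c0_g2_i1 (FDR 0.587) in the mitochondrial list. Plant virus transcripts summed to 224 CPM in water deficit 1, to 1.06 and 0.521 in water deficit 2 and 3, and to 24.1, 19.2 and 2.94 in the salt libraries. A movement protein (Ahybridus_DN9821_c0_g1_i1) measured 10.3, 9.74 and 1.39 CPM under salt and 146, 0.396 and 0.149 under water deficit (FDR 0.451), and a replicase (Ahybridus_DN9603_c0_g2_i1) 2.70, 2.14 and 0.550 and 21.7, 0.220 and 0.0745 (FDR 0.498). Virus level therefore set water deficit 1 apart and did not follow the stress groups. Of 6 tested transcripts with an animal, fungal or bacterial best hit, 0 were DEGs and their median log2FC was −0.04. The lowest p values there belonged to Ahybridus_DN9417_c0_g1_i1 (FDR 0.0523) and Ahybridus_DN9276_c0_g2_i1 (FDR 0.787). The part of virus or other organisms in the differences above was not tested.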

How the data were processed

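Leaf RNA of *A. hybridus* was sequenced in single-end reads of 75 bases. The authors trimmed reads with Trimmomatic, assembled the species with Trinity, reduced the assembly with CD-HIT, mapped reads with Bowtie2 2.3.0 and deposited raw counts of uniquely mapped reads per transcript, without normalization. These counts were fitted here in edgeR 4.0.16 under R 4.3.3 with limma 3.58.1, using glmQLFit and glmQLFTest on 9 libraries, TMM factors, filterByExpr, 6 residual degrees of freedom and Benjamini-Hochberg adjustment over 9686 transcripts. The standard error of a log2FC is its size over the root of its F statistic. The median tested transcript had 21 counts per library.

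Stress was applied in randomized complete blocks, and which block a library's plants came from is not given in the sources used here, so p-values measure the spread between these libraries. The members and lists were chosen with earlier results of these data known, and list members come from the study's DEG lists of the same libraries.

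Named are up to 12 DEGs per direction with the largest log2FC among those with an informative description, a mean level of 1 log2 CPM or more and stresses that do not overlap. Also named are the other DEGs of a list, 3 DEGs per direction without such a description, and the 2 lowest p of each list without a DEG. Descriptions were read from the study's supplementary lists for 597 transcripts, 437 of them informative. The fold and test columns there hold the study's own comparisons and were not used, and the table of *A. hypochondriacus* was not used here.

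Alternatives were the exact test of edgeR, DESeq2 1.42.0, a fit on 6 libraries, RLE factors, library totals, other filters and thresholds, the 20 most abundant transcripts left out, thinning to the smallest library, a block for the replicate number, and leaving out each library. The exact test on 6 libraries with an absolute log2FC above 2, and the counts by control position or water deficit 3 with libraries left out, were added after seeing the data.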

Additional observations from a re-analysis of the deposited data

How the results depend on the processing

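The number of DEGs was 205. The exact test of edgeR called 393 on 9 libraries and 440 on the 6 compared, an FDR limit of 0.05 gave 449, an absolute log2FC above 2 gave 134, and library totals as the only scaling gave 0. With 1 library left out it ranged from 63 to 539. It stayed within 1.5 times of 205 under DESeq2 (302), the quasi-likelihood test on 6 libraries (201), RLE factors (205), without the 20 most abundant transcripts (222), no filter (300), a CPM filter (198) and thinning (157). The exact test on 6 libraries with an absolute log2FC above 2, added after seeing the data, gave 171. The share of lower DEGs, 87.8%, fell to 78.1% and 79.3% in the exact tests, 77.7% at an FDR limit of 0.05, 75.7% without a filter and 62.5% without water deficit 3. With 1 library left out, the log2FC of Ahybridus_DN9276_c0_g2_i1, a transcript of bacterial best hit, ranged from −1.12 to 1.02 and was positive without salt replicate 1. Those of the virus transcripts Ahybridus_DN9821_c0_g1_i1 and Ahybridus_DN9603_c0_g2_i1 ranged from −4.54 to 3.39 and from −3.34 to 2.72 and were negative without water deficit replicate 1. None of these passed the test in any of those fits. No other named transcript changed sign. Counts outside the 20 most abundant transcripts limit the precision for low transcripts. The cause of these moves was not tested.

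With the replicate number as a replicate block, 155 DEGs were called (136 lower and 19 higher), and 147 of the 205 remained. Deviations of same-numbered salt and water-deficit libraries from their group means correlated at −0.09, −0.21 and 0.0045 across 3006 transcripts. The study used randomized complete blocks, but whether a replicate number marks a block is not given in the sources used here, and these correlations gave no sign that it does.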
